A study of Mus musculus with 6 samples.

Results

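Mouse genes whose protein-coding sequence is known to be recoded by A-to-I editing were followed as transcript levels in Th17 cells that carried an ADAR2 transgene. They were Azin1, Blcap, Cog3, Copa, Cyfip2, Flna, Tmem63b, Neil1 and Cacna1d, taken by name from a list of known recoding targets, and all 9 were found among the 55450 genes of the deposited tables. Of these 9 genes, 8 passed the filter on low counts, as did 14958 genes in all. Cacna1d did not pass. Only abundance was measured: whether any of these sites was edited in these cells was not analysed here.

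The cells were CD4 T cells of wild-type mice aged 8 to 12 weeks, activated with antibodies to CD3 (0.25 µg/mL) and CD28 (1 µg/mL). Every group had the same Th17 conditions, TGF-beta at 0.1 and later 0.3 ng/mL with IL-6 at 20 ng/mL, received an MSCV retrovirus, a murine vector, at 24 h and was harvested at 72 h. The groups were ADAR2 WT, the active deaminase; ADAR2 E396A, an enzymatically dead form; and the empty vector, with 2 libraries each. Cells of 2 mice, called donors A and B, each received all 3 viruses, so p-values rest on 2 animals. The labels assign no library column to a donor: donors were read from the authors' deposited test statistics, and the constructs from the names of the deposited tables. The transgene was driven by the retrovirus and measured in bulk cultures, in which fewer cells of a type and less RNA per cell cannot be told apart.

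Reads assigned to genes ranged from 16496328 to 21897166 per library. Adarb1, the gene of ADAR2, stood at 18499 and 19077 normalized counts in ADAR2 WT cells of donors A and B and at 15709 and 14982 in ADAR2 E396A cells, against 3687 and 3346 in empty-vector cells. A normalized count is the number of reads divided by a size factor of the library. Adarb1 was higher than in empty-vector cells under either construct, by a log2 fold change of 2.42 (adjusted p = 2.21e-06) for ADAR2 WT and 2.13 (adjusted p = 6.48e-06) for ADAR2 E396A, by limma on log2 normalized counts with Benjamini-Hochberg adjustment over all genes tested. ADAR2 WT and ADAR2 E396A differed in Adarb1 by 0.29 (adjusted p = 0.161). Adar, the gene of ADAR1, had 2252 to 3237 normalized counts over the 6 libraries. Its log2 fold changes over the empty vector were 0.25 (adjusted p = 0.141) for ADAR2 WT and 0.07 (adjusted p = 0.999) for ADAR2 E396A. Adar was higher in donor B than in donor A by 0.28 (limma adjusted p = 0.0168). All 5 CD4 T cell markers and all 6 Th17 markers were detected in these cultures. The CD8 T cell markers Cd8a and Cd8b1 summed to 162 to 175 normalized counts with ADAR2 WT, 149 to 156 with ADAR2 E396A and 160 to 178 with the empty vector. The 3 B cell markers summed to 6.82 to 34.8, 25.4 to 39.6 and 9.78 to 18.8 in the same groups; nearly all of this was Cd79a, and Ms4a1 was at 0 in every library. The NK gene Ncr1 was also at 0, and 4 myeloid markers summed to 1.16 to 10.7 normalized counts with ADAR2 WT, 4.38 to 6.92 with ADAR2 E396A and 7.32 to 10.8 with the empty vector.

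A-to-I editing is the deamination of adenosine to inosine in double-stranded RNA by the ADAR enzymes, ADAR1 (Adar) and ADAR2 (Adarb1). Ribosomes read inosine as guanosine, so an edited codon can specify another amino acid; the duplex that guides the enzyme is often formed with a neighbouring intron before splicing. Recoding is best known in neurons, where glutamate receptor editing is the textbook case, but the genes described here are expressed outside the brain as well and serve membrane traffic, the actin cytoskeleton, polyamine control, DNA repair and ion transport.

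The recoded codons are shown first, because they are what these genes share. ADAR1 and ADAR2 differ in the sites they are known to edit, and which enzyme acts on which of these bases was not measured here. Each line is the RNA-sense sequence of the annotated mm10 transcript (GENCODE vM21), 5′ to 3′, with the edited adenosine in capitals and 15 bases on each side; the codons are those known from the editing literature, and no base was read from these libraries.
Copa: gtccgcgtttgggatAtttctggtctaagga
Cog3: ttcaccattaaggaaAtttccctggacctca
Flna: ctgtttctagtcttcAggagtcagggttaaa
Cyfip2: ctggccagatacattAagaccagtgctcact
Azin1: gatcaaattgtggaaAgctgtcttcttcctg
Neil1: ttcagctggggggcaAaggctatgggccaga
Tmem63b: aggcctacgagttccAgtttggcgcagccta
Cacna1d: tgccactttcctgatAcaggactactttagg
Blcap has 3 such adenosines near its start codon, so its first 16 codons are shown, beginning with the ATG and with the 3 bases in capitals.
Blcap: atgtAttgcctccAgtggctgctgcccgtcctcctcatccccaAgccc

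In Copa the change is isoleucine to valine at chromosome 1, position 172092348, on the plus strand in exon 6 of 33. The other 8 genes lie on the minus strand. Cog3 also changes isoleucine to valine, in exon 17 of 23 (chr14:75719704-75719734). In Flna a glutamine becomes arginine at chromosome X, position 74226862, in exon 42 of 47. Cyfip2 changes lysine to glutamate in exon 10 of 31 (chr11:46272628-46272658), and Azin1 changes serine to glycine in exon 11 of 12 (chr15:38491597-38491627). For Neil1 the change is lysine to arginine at chromosome 9, position 57144308, in exon 5 of 9, and for Tmem63b glutamine to arginine in exon 20 of 24 (chr17:45662934-45662964). Cacna1d changes isoleucine to methionine within its calmodulin-binding IQ motif, in exon 39 of 47 (chr14:30066106-30066136). The Blcap stretch lies in exon 2 of 2 (chr2:157558106-157558153) and its codons 2, 5 and 15 change tyrosine to cysteine, glutamine to arginine and lysine to arginine. The windows of Copa, Flna and Neil1 cross an exon junction, so that their bases are not contiguous in the genome.

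Over the 11 adenosines of the 9 genes, 6 were the middle base of the codon, 4 the first and 1 the last. Lysine or glutamine codons accounted for 6 of the sites, and 5 of the sites changed the residue to arginine. The base before the edited adenosine was A at 4 sites, T at 4, C at 3 and G at 0. Among all 7462 adenosines in the coding sequences of the same transcripts, G preceded 28.8% and T 13.5%. The base after the edited adenosine was G at 5 sites, against 30.6% of all coding adenosines. These are descriptions of the sites, which were chosen because they are edited.

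Per kilobase of exon, the scale used to compare genes, the transcripts differed widely in level. Cyfip2 was highest, at a mean of 2798 normalized counts per kb over the 6 libraries (lowest 2589, highest 3040), which ranked 228 among the genes tested and lay in the top 1.52%. Flna followed at 1634 (1351 to 1878), Copa at 653 (594 to 693), Azin1 at 366 (323 to 404) and Cog3 at 263 (226 to 314). These 5 ranges did not overlap their neighbours. Neil1 averaged 136 per kb (107 to 146), Tmem63b 100 per kb (82 to 117) and Blcap 84.5 per kb (65.4 to 101). Neil1 overlapped Tmem63b, and Tmem63b overlapped Blcap, so the order among these neighbours was within their spread. Blcap, the lowest of the genes that passed, was still in the top 48.4% of genes tested, and Cacna1d stood at 0.697 per kb (0.58 to 0.941).

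**Figure D1:**
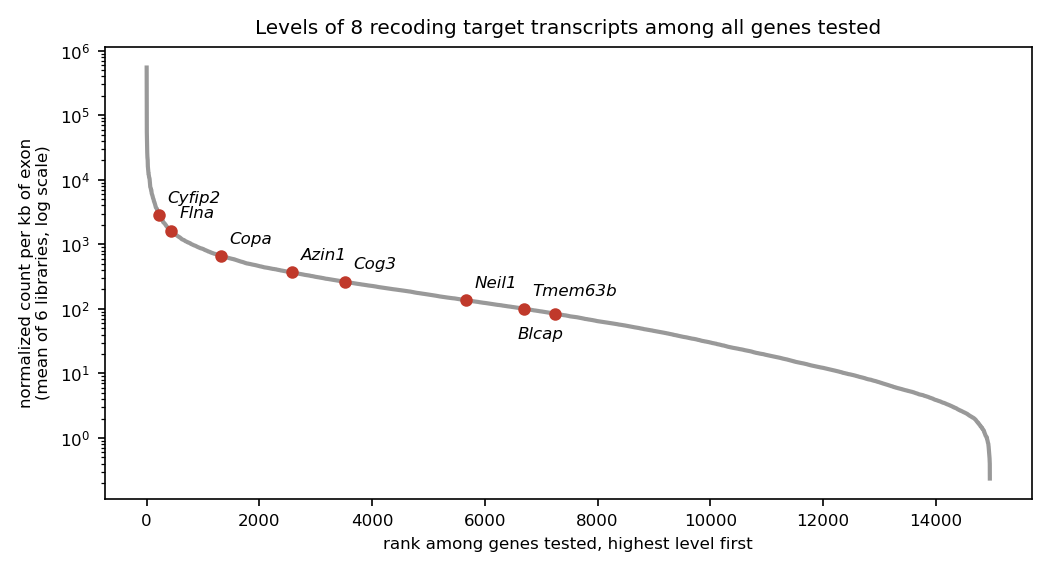
Level of each gene tested, as the mean normalized count per kb of exon over 6 libraries (vertical axis, log scale), by its rank (horizontal axis, highest first); the grey line is all 14958 genes and red points are 8 recoding targets. Cyfip2 and Flna sit in the steep upper end at 2798 and 1634 per kb, and Neil1, Tmem63b and Blcap lie close together between 84.5 and 136 per kb.

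Among the membrane traffic genes, Copa (ENSMUSG00000026553.17, chromosome 1, 172082529 to 172122330, plus strand) encodes the alpha subunit of the COPI coat, which carries cargo back from the Golgi to the endoplasmic reticulum. It had 6223 and 6299 normalized counts in ADAR2 WT cells of donors A and B and 5602 and 6535 in ADAR2 E396A cells, against 6014 and 6252 in empty-vector cells. All 3 groups overlapped, and the highest library was 1.17 times the lowest. Cog3 (ENSMUSG00000034893.8, chromosome 14, 75702350 to 75754517, minus strand) is a subunit of the conserved oligomeric Golgi complex, which tethers vesicles within the Golgi. It had 1256 and 1308 normalized counts in ADAR2 WT cells and 1513 and 1627 in ADAR2 E396A cells, against 1173 and 1295 in empty-vector cells. Both ADAR2 E396A libraries lay above all 4 others.

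Of the cytoskeletal genes, Flna (ENSMUSG00000031328.15, chromosome X, 74223461 to 74249820, minus strand) encodes filamin A, which cross-links actin filaments and anchors membrane proteins to them. It had 14059 and 17490 normalized counts in ADAR2 WT cells of donors A and B and 12703 and 15920 in ADAR2 E396A cells, against 14336 and 17650 in empty-vector cells. Within every group the donor B library was the higher. Cyfip2 (ENSMUSG00000020340.16, chromosome 11, 46193850 to 46312859, minus strand) encodes a subunit of the WAVE regulatory complex, which controls branched actin assembly. It had 19936 and 18390 normalized counts in ADAR2 WT cells and 19699 and 21191 in ADAR2 E396A cells, against 21594 and 18437 in empty-vector cells. The groups overlapped and no donor was higher throughout.

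Azin1 (ENSMUSG00000037458.15, chromosome 15, 38487427 to 38519266, minus strand) encodes antizyme inhibitor 1, which binds antizyme and so spares ornithine decarboxylase, the entry enzyme of polyamine synthesis. It had 2496 and 2393 normalized counts in ADAR2 WT cells and 2116 and 2205 in ADAR2 E396A cells, against 2018 and 2528 in empty-vector cells. The ADAR2 WT libraries lay above the ADAR2 E396A libraries, and the empty-vector libraries spanned both. Neil1 (ENSMUSG00000032298.13, chromosome 9, 57142800 to 57148305, minus strand) is a DNA glycosylase that removes oxidised bases. ADAR2 WT cells held 274 and 200 normalized counts of it and ADAR2 E396A cells 266 and 263, against 271 and 255 in empty-vector cells. The ADAR2 WT library of donor B was the lowest of the 6, and the other 5 lay within 255 to 274.

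Blcap (ENSMUSG00000067787.10, chromosome 2, 157556362 to 157571274, minus strand) encodes a small membrane protein first described as reduced in human bladder cancer. It had 199 and 306 normalized counts in ADAR2 WT cells and 227 and 263 in ADAR2 E396A cells, against 260 and 288 in empty-vector cells. Both the lowest and the highest library were ADAR2 WT, and the ratio between them, 1.54, was the largest among the 8 genes that passed the filter. Tmem63b (ENSMUSG00000036026.15, chromosome 17, 45660171 to 45686905, minus strand) encodes a cation channel opened by osmotic or mechanical force. It had 514 and 595 normalized counts in ADAR2 WT cells and 506 and 502 in ADAR2 E396A cells, against 418 and 531 in empty-vector cells. The empty-vector libraries were the farthest apart relative to their level, and both other groups overlapped them.

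Cacna1d (ENSMUSG00000015968.17, chromosome 14, 30039939 to 30491455, minus strand) encodes the pore of the L-type calcium channel CaV1.3 and was barely detected. It had 9 and 7 reads in ADAR2 WT cells and 12 and 9 in ADAR2 E396A cells, against 7 and 9 in empty-vector cells. Summed over donors these were 16 reads (95% exact Poisson interval 9.15 to 26) with ADAR2 WT, 21 (13 to 32.1) with ADAR2 E396A and 16 (9.15 to 26) with the empty vector, intervals that cover counting error only. At this depth no difference was detectable: without the filter, limma gave log2 fold changes of 0.06 (95% interval -1.12 to 1.25) for ADAR2 WT and 0.24 (-0.94 to 1.43) for ADAR2 E396A against the empty vector. For the lowest library, counting error alone was 37.8% for Cacna1d and 7.6%, 7% and 5% for Neil1, Blcap and Tmem63b, but at most 2.99% for the other 5 genes.

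**Figure D2:**
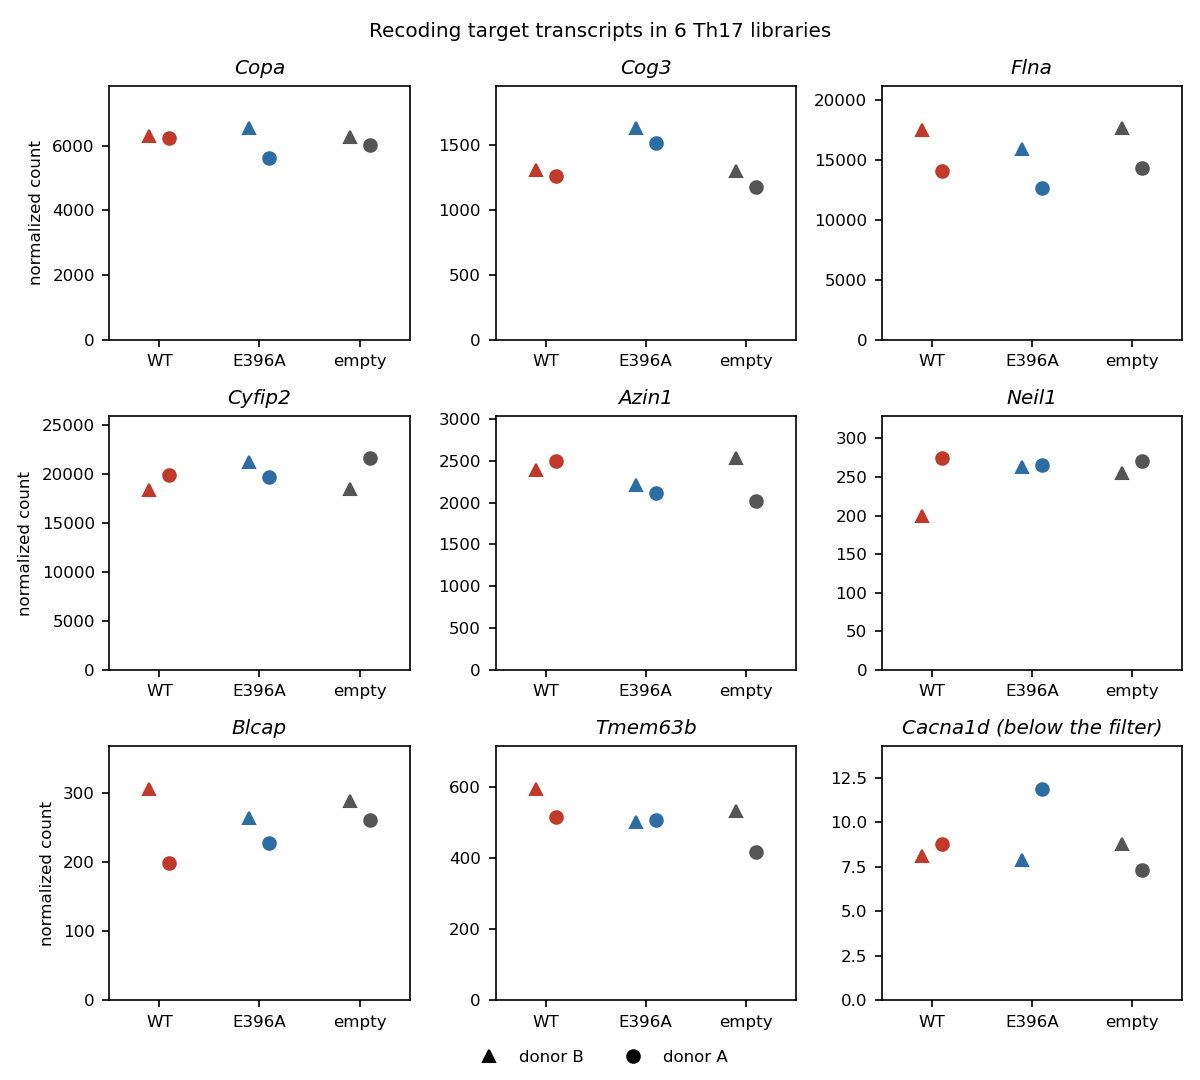
Normalized counts of the recoding target genes, 1 panel a gene, by group (horizontal axis: ADAR2 WT, ADAR2 E396A, empty vector); each point is a library, marked by donor. Both Cog3 points of ADAR2 E396A, 1513 and 1627, lie above the other 4, and the donor B points of Flna lie above the donor A points in each group.

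The comparison of ADAR2 WT with the empty vector asks whether the active enzyme went with altered levels of these transcripts. By limma, 0 of the 8 genes passed an adjusted p of 0.05, where 0.816% of all genes tested did (122 of 14958). At an unadjusted p under 0.05 there were also 0 of 8, against 14.1% of all genes, and edgeR and DESeq2 on the recovered reads likewise called 0. Log2 fold changes ran from -0.17 (Neil1, SE 0.14, adjusted p = 0.638) to 0.23 (Tmem63b, SE 0.11, adjusted p = 0.393), with 4 of 8 above 0. The libraries of the 2 groups overlapped for all 8 genes, whereas 37.2% of all genes tested showed no overlap. The median absolute log2 fold change was 0.0866 for the 8 genes and 0.144 for all genes, and the median SE was 0.0885 and 0.13.

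These data bound the changes without showing that there were none. The limma 95% intervals of the 8 genes lay between 0.714-fold and 1.4-fold of the empty vector. DESeq2 gave larger SEs and so wider limits: 0.23 for Neil1 and Blcap and 0.17 for Tmem63b, against 0.14 and 0.11 by limma. The limma intervals were narrowest for Flna, a log2 fold change of -0.02 (-0.15 to 0.11), and Copa gave 0.03 (-0.13 to 0.19) and Cog3 0.06 (-0.11 to 0.22). For Cyfip2 the change was -0.06 (-0.25 to 0.13) and for Azin1 0.11 (-0.10 to 0.33). Blcap gave -0.15 (-0.48 to 0.18), the mean of unlike donors: its log2 change was -0.39 in donor A and 0.08 in donor B. Azin1 likewise moved by 0.31 in donor A and -0.08 in donor B. Both donors moved the same way for 5 of 8 genes, and for 62.7% of all genes tested.

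In ADAR2 E396A cells, which carry a protein that lacks deaminase activity, the gene that stood apart was Cog3. It was 1.27-fold the empty vector (95% interval 1.13 to 1.43), a log2 fold change of 0.35 (SE 0.07), with changes of 0.37 in donor A and 0.33 in donor B. Its unadjusted p was 0.00117, but the limma p adjusted over all genes was 0.995, so it did not pass. In the authors' deposited table, whose fold changes run empty vector over construct, Cog3 stood at -0.35 with a standard error of 0.16, p = 0.0304 and an adjusted p of 1. Flna had a log2 fold change of -0.16 (SE 0.06, 95% interval -0.30 to -0.03, unadjusted p = 0.0238, limma adjusted p = 0.999), with -0.17 in donor A and -0.15 in donor B. The authors' DESeq2 table gave Flna 0.16, empty vector over construct, with a standard error of 0.12 and p = 0.2.

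Against the empty vector, then, ADAR2 E396A gave 0 of 8 genes past the adjusted threshold by limma, where 0.0134% of all genes passed (2 of 14958), and edgeR and DESeq2 also called 0. At an unadjusted p under 0.05 there were 2 of 8, Cog3 and Flna, against 3.89% of all genes. Cog3 was the 1 gene of 8 whose groups did not overlap, against 23.4% of all genes. The remaining 6 had log2 fold changes of -0.17 for Blcap, -0.06 for Azin1, -0.02 for Copa, 0.01 for Neil1, 0.03 for Cyfip2 and 0.10 for Tmem63b, each with an adjusted p of 0.999. By limma the 95% intervals of all 8 lay between 0.709-fold and 1.43-fold. DESeq2 SEs were again larger, 0.23 for Blcap and 0.12 for Cog3, against 0.14 and 0.07 by limma. Both comparisons use the same empty-vector libraries.

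**Figure D3:**
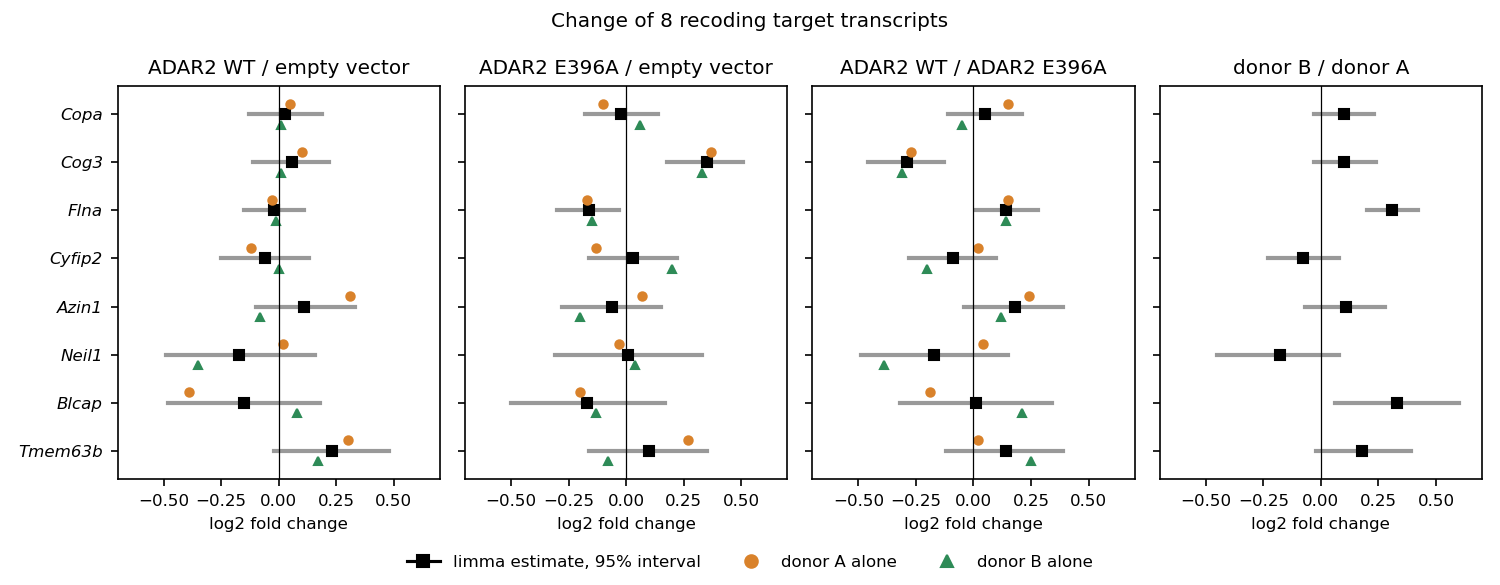
Log2 fold changes (horizontal axis) of the 8 recoding targets that passed the filter, for the 3 construct comparisons and for donor B over donor A; squares with bars are limma estimates with unadjusted 95% intervals, and circles and triangles are donors A and B alone. Most intervals include 0; Cog3 with ADAR2 E396A (0.35) and Flna between donors (0.31) are among those that do not, and the Flna donor difference alone passed the adjusted threshold.

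The direct comparison of ADAR2 WT with ADAR2 E396A sets the active enzyme against the dead protein. By limma 0 of 8 genes passed, where 0.0669% of all genes did (10 of 14958); edgeR and DESeq2 called 0. At an unadjusted limma p under 0.05 there were 2, Cog3 and Flna, against 12.4% of all genes tested. DESeq2 left 1 of the 8, Cog3, with 873 genes in all at such a p. Cog3 was at 0.817-fold the ADAR2 E396A level (95% interval 0.728 to 0.916), a log2 fold change of -0.29 (SE 0.07, unadjusted p = 0.00342, adjusted p = 0.188), with -0.27 in donor A and -0.31 in donor B. With libraries left out in turn, the log2 fold change of Cog3 ranged from -0.32 to -0.26. Flna had a log2 fold change of 0.14 (SE 0.06, 95% interval 0.01 to 0.28, adjusted p = 0.378) and moved by 0.15 and 0.14 in donors A and B.

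The libraries of ADAR2 WT and ADAR2 E396A did not overlap for 3 of 8 genes, against 36.7% of all genes tested. Azin1 and Tmem63b were above in both ADAR2 WT libraries and Cog3 below. Azin1 had a log2 fold change of 0.18 (95% interval -0.04 to 0.39, adjusted p = 0.484) and Tmem63b one of 0.14 (adjusted p = 0.652). Blcap, Copa, Cyfip2 and Neil1 were at 0.01, 0.05, -0.09 and -0.17, with adjusted p between 0.65 and 0.981. The median absolute log2 fold change was 0.138 for the 8 genes and 0.137 for all genes.

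The donors differed for the filamin. Flna was 1.24-fold higher in donor B than in donor A (95% interval 1.15 to 1.34), with 15920 to 17650 normalized counts in donor B and 12703 to 14336 in donor A. The log2 fold change was 0.31 (SE 0.05, limma adjusted p = 0.00811). Flna was thus the 1 gene of 8 that passed between donors, where 7.51% of all genes did; 2 of 8, Flna and Blcap, had an unadjusted p under 0.05, against 22% of all genes. Both edgeR and DESeq2 called 1 of the 8. Without the ADAR2 WT library of donor A its adjusted p was 0.178, and without that of donor B 0.151, at log2 fold changes of 0.31 to 0.32 over all libraries left out in turn. Th17 cytokine genes moved with the donor: Il17a was higher in donor B by 2.05 (adjusted p = 0.00146) and Il17f by 1.58 (adjusted p = 0.00954) on the log2 scale, and their part in the Flna difference was not tested.

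Blcap had the largest donor log2 fold change of the 8, 0.33 (SE 0.12, 95% interval 0.06 to 0.60), with 263 to 306 normalized counts in donor B and 199 to 260 in donor A. Its limma adjusted p was 0.15. With libraries left out in turn, its log2 fold change ranged from 0.18 to 0.42. Donor libraries did not overlap for 4 of 8 genes, against 22.8% of all genes: Flna, Blcap and Copa were above in donor B and Neil1 was below. Copa had a donor log2 fold change of 0.10 (adjusted p = 0.363) and Neil1 one of -0.18 (adjusted p = 0.4). Tmem63b, Azin1, Cog3 and Cyfip2 stood at 0.18, 0.11, 0.10 and -0.08 (adjusted p 0.283 to 0.549). The 2 donors are 2 mice, and each mouse had its own cultures and libraries, so mouse and culture cannot be told apart.

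The partners of each gene were set beside it, from lists of complexes and pathways. None of the partners passed in any of the 3 construct comparisons by limma: 0 of 8 tested in the COPI coat besides Copa, 0 of 7 in the COG complex besides Cog3, 0 of 8 in the WAVE complex besides Cyfip2 and 0 of 10 in the polyamine list besides Azin1. Nor did any of the others tested: 0 of 10 base excision repair genes besides Neil1 and 0 of 6 calcium channel genes passed. Tmem63a did not pass either. Among all genes tested, 0.816% passed for ADAR2 WT over empty vector, 0.0134% for ADAR2 E396A over empty vector and 0.0669% between the constructs. At an unadjusted p under 0.05 the highest number over these partner lists and construct comparisons was in the polyamine list for ADAR2 WT against ADAR2 E396A, 3 of 11 genes tested, where 12.4% of all genes had such a p. By share the calcium channel list was highest, at 2 of 6 genes for ADAR2 WT against the empty vector and against ADAR2 E396A. The shares of all genes were 14.1% and 12.4%. Cacnb2 was among them in both, at -0.82 (limma adjusted p = 0.176) and -1.04 (limma adjusted p = 0.161). Of the 6 genes, 2 and 1 had changes above 0. For the other COG subunits the log2 fold changes of ADAR2 E396A against the empty vector lay between -0.13 (Cog8) and 0.13 (Cog7), with a median of 0.01, against 0.35 for Cog3. The COG subunits nearest to Cog3 in level per kb were Cog5, at 259 per kb with a log2 fold change of 0.02, and Cog2, at 216 per kb with -0.03. For ADAR2 WT over ADAR2 E396A the other COG subunits lay between -0.30 (Cog5, limma adjusted p = 0.288) and 0.12. Of these 7, 4 were above 0, and Cog3 was at -0.29. Cog5 was also at -0.28 (limma adjusted p = 0.276) for ADAR2 WT over the empty vector.

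For the COPI coat the log2 fold changes with ADAR2 WT besides Copa lay between -0.57 (Copz2) and 0.12 (Copg1), with a median of -0.06, and with ADAR2 E396A between -0.19 and 0.03. Odc1, the ornithine decarboxylase whose inhibitor Azin1 relieves, was at 5851 normalized counts per kb, well above Azin1, with log2 fold changes of 0.17 (adjusted p = 0.293), -0.05 (adjusted p = 0.999) and 0.22 (adjusted p = 0.244) for ADAR2 WT over empty vector, ADAR2 E396A over empty vector and ADAR2 WT over ADAR2 E396A. Its paralog Azin2 had 160 per kb and 0.35, -0.15 and 0.49, none past the threshold.

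Further paralogs are given here by level, with changes for Cyfip1 and Cacna1c. Cyfip1, the other CYFIP subunit of the WAVE complex, stood at 138 normalized counts per kb, against 2798 for Cyfip2, and had log2 fold changes of -0.03, -0.13 and 0.10 in the same 3 comparisons. In the channel families, Tmem63a was at 42.3 per kb and Tmem63c was not tested, and Cacna1c, the pore of the related channel CaV1.2, was at 1.67 per kb, with a log2 fold change of 0.85 (adjusted p = 0.365) for ADAR2 WT over the empty vector. Neil3 was at 50.2 per kb and Neil2 at 7.94.

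Between donors, related genes also passed by limma. Igfbp7, another known recoding target, was higher in donor B by 1.56 (SE 0.31, adjusted p = 0.0193). Lower in donor B were Cog6 by -0.39 (adjusted p = 0.00781), Neil2 by -0.98 (adjusted p = 0.0338) and the accessory calcium channel subunits Cacnb1 by -1.48 (adjusted p = 0.00506), Cacna2d4 by -1.30 (adjusted p = 0.00726) and Cacnb2 by -1.11 (adjusted p = 0.012). Cog6 had 1292 to 1439 normalized counts in donor B and 1674 to 1865 in donor A.

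**Figure D4:**
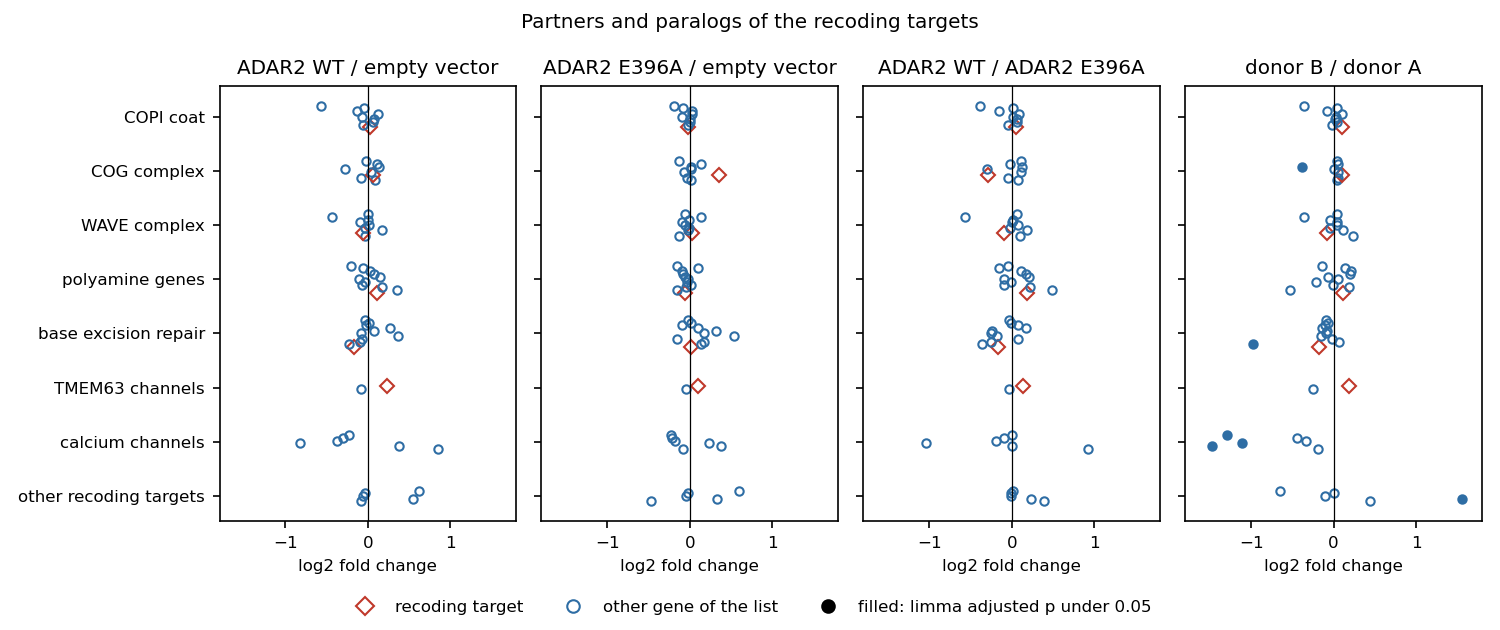
Log2 fold changes (horizontal axis) of partner and paralog genes by list (vertical axis), for the construct comparisons and for donor B over donor A; each circle is a gene, diamonds are the recoding targets themselves, and filled symbols passed an adjusted p of 0.05. The COG subunits other than Cog3 lie between -0.13 and 0.13 for ADAR2 E396A over the empty vector, and the filled symbols are all in the donor comparison.

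Of 16 further genes known for recoding, 6 passed the filter, among them Gria3, Igfbp7, Cdk13, Son and Gli1. The neuronal receptor genes Gria2, Gabra3 and Htr2c had 0 reads in every library. By limma 0 of the 6 passed in any construct comparison, with 0 at an unadjusted p under 0.05. Of all genes, 0.816% passed for ADAR2 WT over empty vector, 0.0134% for ADAR2 E396A over empty vector and 0.0669% between the constructs. At the unadjusted p these shares were 14.1%, 3.89% and 12.4%. Son, at a mean of 14344 normalized counts, had a log2 fold change of -0.03 for ADAR2 WT over the empty vector. Gli1, at a mean of 14.1 normalized counts, had one of 0.62.

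The genes most like each recoding target over the 6 libraries were found by Pearson r of log2 normalized counts among 10212 protein-coding genes, as a description; with 6 points and so many genes, high values are to be had by search alone. For Cog3 they were Llgl1 (0.974) and Nktr (0.955), and for Copa Ctnna1 (0.990) and Zfp59 (0.983). Flna ran closest to Fem1b (0.993) and Zscan29 (0.992), and Cyfip2 to Espn (0.989) and Unkl (0.985). Azin1 was matched by Erh (0.998) and Snu13 (0.997), Neil1 by Aldh18a1 (0.978) and Camkmt (0.977), Blcap by Tsc2 (0.987) and Ier3 (0.987), and Tmem63b by Pms2 (0.993) and Il10rb (0.989). Among the recoding targets themselves, Blcap and Flna, whose libraries were both above in donor B, were the most alike (0.82), and Cyfip2 and Tmem63b the least (-0.84).

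Exons of some of these genes overlap other genes on the opposite strand, and the strand setting of the counting is not given in the sources used here. Azin1 shares 5.72% of its exon bases with Gm49077, and Copa 2.07% with Ncstn and 7.51% with Gm37756. Tmem63b shares 2.08% with Mrpl14 and 5.65% with Gm16172, and Cacna1d 4.67% with Chdh. Ncstn averaged 1413 normalized counts and Mrpl14 214, while Gm49077, Gm37756, Gm16172 and Chdh averaged 10.4, 4.65, 4.85 and 0.32. Blcap, Cog3, Cyfip2, Flna and Neil1 share no exon base with another gene.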

How the data were processed

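Ribosome-depleted RNA was sequenced on a NovaSeq, per the labels' protocols. The submitters' processing notes name the aligner STAR 2.6.1a, featureCounts, DESeq2 1.18.1 and the mm10 build; for their settings, strandedness included, and for the annotation, nothing was found among the sources. The authors deposited 2 tables, 1 per construct, with normalized counts (a signal) of 4 libraries, the log2 fold change of empty vector over construct, its standard error and, per the file headers, a Wald statistic (a score) with p-values before and after adjustment.

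Every deposited value was a whole read count divided by 1 factor per library, within 0.001 of a read, so reads were recovered and rescaled by median-of-ratios factors over all 6 libraries. All 55450 gene IDs matched GENCODE vM21, which gave symbols, positions and sequences. Empty-vector libraries are those in both tables. Donors were paired by refitting DESeq2: the pairing used returned the deposited Wald statistics within 5.718e-05, against 2.033 or more with no donor term and 6.084 or more with donors crossed. The labels' protocols describe the use of both donors for every construct; replicate numbers of the columns are not given.

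Because the values are normalized and not raw counts, limma 3.58.1 (R 4.3.3) replaced the edgeR test planned for counts. It was fitted on log2(normalized count + 1), which understates changes of low genes, with group and donor as terms, an empirical Bayes trend on the mean, and Benjamini-Hochberg adjustment at 0.05 over the 14958 genes that passed edgeR's filterByExpr. The trend was set after a first look at simulated and real data. Also run were DESeq2 1.42.0 and edgeR 4.0.16 on the reads, other scalings, filters and pseudocounts, fits without donor, on 4 libraries or without the trend, and each library left out. The fit was tested on simulated data.

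The recoding targets and the lists of partners were chosen with earlier results of these data known. Genes named besides them are Adarb1 and Adar, markers, partners that passed (up to 4 a list), paralogs, genes overlapping exons, and the 2 protein-coding genes most alike with a mean of at least 50; Cog2, Cog5, Cog7, Cog8, Copg1, Copz2, Odc1, Il17a, Il17f and the further recoding targets were named after their values were seen. A further gene of the lists is not reported here.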

Additional observations from a re-analysis of the deposited data

How the results depend on the processing

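None of the 8 genes passed in a construct comparison under any setting that kept 2 libraries in every group. Leaving out a library leaves its group with 1, so the calls of those fits are weak. The Flna call between donors did not hold in every such fit. Over all genes, leaving out libraries gave 1 to 1217 genes for ADAR2 WT against empty vector, 1 to 127 for ADAR2 E396A against empty vector, 0 to 846 for ADAR2 WT against ADAR2 E396A (686 at an unadjusted p under 0.05 where it was 0) and 111 to 1701 between donors, against 122, 2, 10 and 1124. In the order ADAR2 WT over empty vector, ADAR2 E396A over empty vector and ADAR2 WT over ADAR2 E396A, DESeq2 called 212, 7 and 110 genes, no filter on low counts 220, 5 and 102, and fits on the 4 libraries of a comparison 1237, 1 and 194. A mean of at least 50 gave 58 for ADAR2 WT over empty vector and 3 for ADAR2 WT over ADAR2 E396A. TMM scaling gave 39 genes for ADAR2 WT over ADAR2 E396A, 12 higher and 27 lower, against 2 higher and 8 lower; for ADAR2 E396A over empty vector it gave 2 higher and 1 lower, against 1 and 1. Without the replicate block, that is without the donor pairing, 2, 1 and 0 genes passed (732 at an unadjusted p under 0.05 in the last) and 0 of the 8. Without the trend of the variance on the mean, an alternative chosen after seeing the data, 0 genes passed in the 3 comparisons (1556, 757 and 1359 at an unadjusted p under 0.05) and 0 between donors (2612), Flna included, at 0.31 (adjusted p = 0.176). The causes were not tested.

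Signs turned only with a library left out. For ADAR2 WT over empty vector the log2 fold change ranged from -0.05 to 0.28 for Azin1, -0.37 to 0.07 for Blcap, -0.03 to 0.09 for Copa, -0.17 to 0.05 for Cyfip2 and -0.36 to 0.03 for Neil1. For ADAR2 E396A over empty vector it ranged from -0.23 to 0.10 for Azin1, -0.11 to 0.07 for Copa, -0.10 to 0.17 for Cyfip2, -0.11 to 0.13 for Neil1 and -0.05 to 0.24 for Tmem63b. For ADAR2 WT over ADAR2 E396A it ranged from -0.20 to 0.23 for Blcap, -0.04 to 0.14 for Copa, -0.23 to 0.04 for Cyfip2, -0.37 to 0.02 for Neil1 and -0.01 to 0.28 for Tmem63b. Between donors Azin1 ranged from 0 to 0.19. Some values kept their sign but moved by over 1.5 times: Tmem63b ranged from 0.11 to 0.35 and Cog3 from 0.02 to 0.09 for ADAR2 WT over empty vector, Blcap from -0.30 to -0.03 for ADAR2 E396A over empty vector and Azin1 from 0.05 to 0.30 for ADAR2 WT over ADAR2 E396A. Between donors Blcap ranged from 0.18 to 0.42, Tmem63b from 0.10 to 0.28, Copa from 0.04 to 0.14, Neil1 from -0.27 to -0.05 and Cyfip2 from -0.17 to -0.01. Cog3 stayed between 0.32 and 0.38 for ADAR2 E396A over empty vector and Flna between -0.17 and -0.15. With 2 donors and 199 to 306 normalized counts for Neil1 and Blcap, changes of these genes within their intervals could not be resolved.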
